A study of Mus musculus with 21 samples.

Results

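Gene expression in the hippocampus of GA-Camk2a mice was compared with that of control mice. The hippocampus libraries were taken by their tissue and genotype labels, with no measured value used, and made up 10 of the 21 libraries of the series. They came from 4 control mice (11, 20, 31 and 37) and 6 GA-Camk2a mice (16, 23, 30, 34, 35 and 41), with 1 library per mouse. Sequencing used prime-seq, which barcodes whole-tissue RNA samples, pools them and counts transcripts from their 3′ ends. The 11 cortex libraries, 10 of them from these mice and 1 from control mouse 38, which has no hippocampus library here, entered only the test of whether the effect of the genotype differed between the tissues.

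GA-Camk2a mice came from a floxed poly-GA line bred with a Camk2a-Cre driver, so that a GFP-tagged poly-GA protein is made in excitatory forebrain neurons and not by design in the other cells of the tissue. The control animals are labelled only ctrl and are named Camk2a in a legend of the paper, and the labels do not give their alleles. Both genotypes were kept on a C57BL/6J background, were 30 to 40 weeks old according to the labels, and were split over batches 1 and 2, each of which held both genotypes. The labels do not give the sex of the mice, and the levels of Xist and Ddx3y are given below.

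Poly-GA is a dipeptide repeat protein translated from the expanded repeat of C9orf72, a common genetic cause of amyotrophic lateral sclerosis and frontotemporal dementia. The hippocampus is a chain of excitatory cell fields, from the granule cells of the dentate gyrus to the pyramidal cells of CA3, CA2 and CA1, that is set among interneurons and glia and is known for its dense glutamatergic synapses and their plasticity. Microglia and astrocytes of such tissue are known to answer injury with interferon-stimulated genes, complement, antigen presentation and lysosomal enzymes.

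The libraries differed in depth and in several genes that mark other tissues or sex, and these differences are given first because they touch later results. Total counts ranged from 1754999 to 5888102 in control and from 1361268 to 3348378 in GA-Camk2a libraries (exact two-sided permutation test, p = 0.114), with overlapping ranges. Mitochondrial transcripts made up 13.3% ± 0.433 (SD, n = 4) of control and 12.2% ± 0.847 (SD, n = 6) of GA-Camk2a counts (exact permutation test, p = 0.0381, and 0.114 after Benjamini-Hochberg adjustment over 3 library measures). The GFP sequence had 1 count in GA-Camk2a 16 and in GA-Camk2a 30 and 0 in the other 8 libraries, so it checked no label. Ttr, the transthyretin transcript of the choroid plexus, was at 10898, 34596, 1847 and 25704 CPM (counts per 1000000 counts of the tested genes, after TMM scaling between libraries) in control mice 11, 20, 31 and 37 and between 1774 and 57058 CPM in GA-Camk2a mice. These ranges overlapped, and 0 of 16 choroid plexus genes passed the test, although all 16 fold changes were positive, with a median of 0.46 (Ttr: log2FC 0.54 ± 0.88, adjusted p = 0.766). Xist, transcribed from the inactive X chromosome, was at 98.4 CPM in control 31, 101 in GA-Camk2a 16 and 96.4 in GA-Camk2a 35 and at most 17.3 elsewhere. Ddx3y of the Y chromosome was at 3.54, 3.67 and 5.29 CPM in these libraries and at 29.7 to 47.5 CPM elsewhere. By these 2 genes both genotypes held mice of both sexes. Rorb reached 1472 CPM in control 11, 5483 in GA-Camk2a 16 and 4531 in GA-Camk2a 30 and was at 89.6 to 163 CPM in the other libraries. GA-Camk2a 41 stood apart most, with 16 genes at 20 CPM or more and at least 10 times the level of every other library, among them S100a8, S100a9, Ngp and Ltf of neutrophil granules and Col1a1, Bglap and Ibsp of bone. Its haemoglobin transcript Hba-a1 was at 2730 CPM against at most 914 CPM in the rest. Without GA-Camk2a 41 the count of changed genes was 1360 in place of 1628, and without GA-Camk2a 16 it was 1243.

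**Figure D1:**
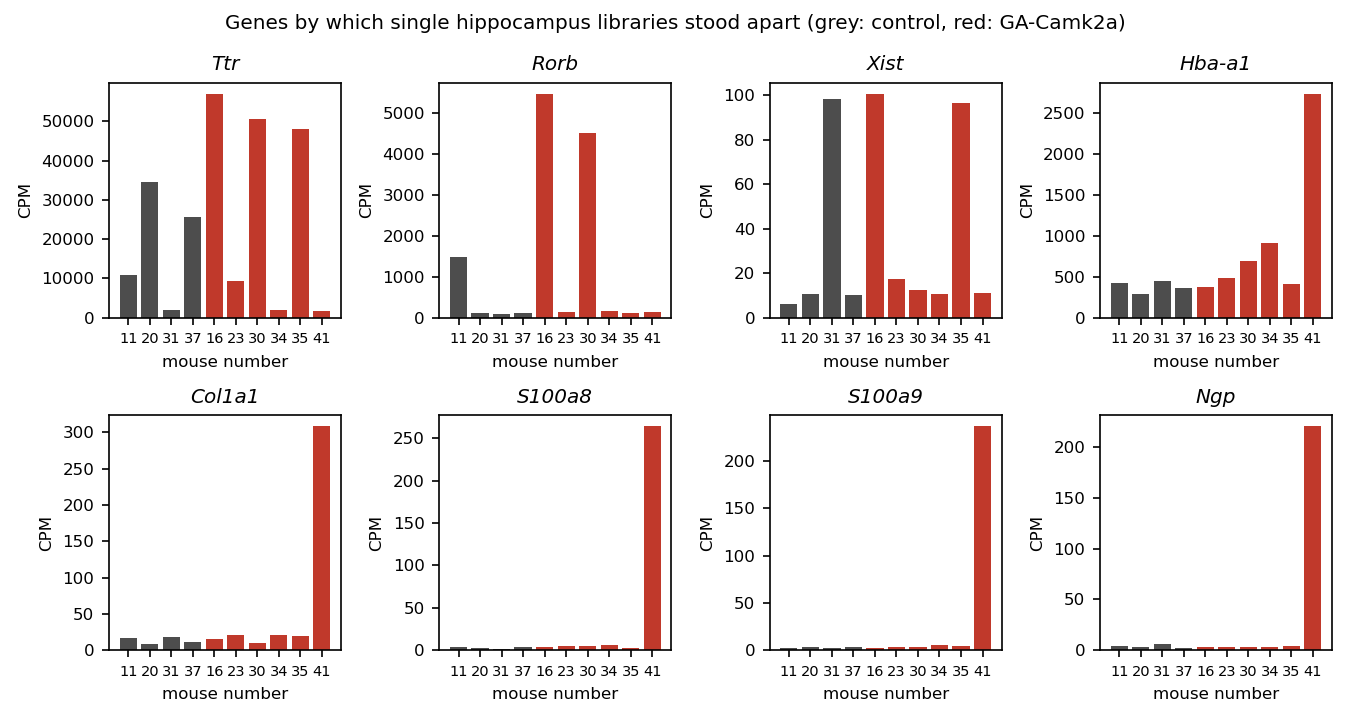
CPM of 8 genes (linear axes, 1 panel per gene) in each hippocampus library, by mouse number, with control libraries in grey and GA-Camk2a libraries in red. Ttr and Xist varied within both genotypes, Rorb was high in mice 11, 16 and 30, and the blood, bone and neutrophil genes Hba-a1, Col1a1, S100a8, S100a9 and Ngp peaked in GA-Camk2a 41.

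In GA-Camk2a hippocampus, genes of pyramidal cells and of excitatory synapses were lower, and genes of microglia, reactive astrocytes and the interferon response were higher. With edgeR's quasi-likelihood test, 1628 of 14884 tested genes (10.9%) passed an adjusted p of 0.05. Of these, 740 were higher (4.97% of the genes tested) and 888 were lower (5.97%) in GA-Camk2a. The rises were larger than the falls, since 271 higher but 51 lower genes changed more than 2-fold, and 46 higher genes but 0 lower genes more than 4-fold. At an unadjusted p under 0.05, 3682 genes passed, and the median log2 fold change of all genes was 0.02. The library values of the genotypes did not overlap for 1562 genes (10.5% of those tested), with GA-Camk2a higher for 4.7% and lower for 5.8%. Below, log2 fold changes (log2FC) are given ± their standard error with edgeR's adjusted p. Scaling by total counts alone changed the split to 901 higher and 627 lower (59.0% in place of 45.5% higher). In such bulk tissue, fewer cells of a type and less RNA in each cell cannot be told apart. The study's methods give a pair of litters for GA-Camk2a mice, and the labels do not tie libraries to litters, so p-values measure the spread between these animals.

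Neurod6, a transcription factor of pyramidal neurons, had the largest fall among well-expressed genes (mean log2 CPM 3 or higher) whose genotypes shared no range. Its level was 179, 149, 179 and 148 CPM in control mice 11, 20, 31 and 37, in which order all control values below are given, and 24.9, 43.3 and 53.5 CPM as the lowest, median and highest of the GA-Camk2a libraries. The fold was 3.92 (log2FC -1.97 ± 0.17, adjusted p = 7.16e-06), and the lack of overlap was a condition of the choice of the leading falls. Hpca, which encodes the calcium sensor hippocalcin, was at 812, 835, 1181 and 1134 CPM in control and at 268, 337 and 481 CPM in transgenic libraries. Ddn, the dendritic protein dendrin, was at 393, 293, 318 and 333 CPM against 97, 123 and 136 CPM. Both fell (log2FC -1.47 ± 0.15, adjusted p = 3.31e-05 for Hpca and log2FC -1.46 ± 0.09, adjusted p = 6.86e-07 for Ddn), and Ddn had the narrowest error of the leading falls. The other leading falls were Npy2r, a receptor for neuropeptide Y (-1.59), Spink8 (-1.57), Gm44257 (-1.48), Lefty1 of the TGF-beta family (-1.35), Bok of the Bcl-2 family (-1.33), Lrrc10b (-1.32) and Cacng8, an auxiliary subunit of AMPA receptors (-1.30), all as log2 fold changes with adjusted p-values from 6.69e-06 to 0.00206.

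Among genes of mean log2 CPM 3 or higher with no shared range, the 10 largest rises were genes of microglia, of chemokine and interferon responses and of complement. Cst7, cystatin F of myeloid lysosomes, was at 4.6, 2.17, 5.3 and 5.74 CPM in control and at 22.7, 48.2 and 64 CPM in GA-Camk2a libraries. C4b, complement component C4, was at 11.5, 7.96, 10.6 and 7.17 CPM against 32.5, 59.8 and 69.1 CPM. Both rose (log2FC 3.47 ± 0.34, adjusted p = 1.93e-05 for Cst7 and log2FC 2.63 ± 0.22, adjusted p = 5.88e-06 for C4b). The lack of overlap was a condition of the choice of all 10. The surface glycoprotein Cd52 was at 7.23, 4.52, 5.3 and 6.7 CPM against 23.3, 38.2 and 52.2 CPM (log2FC 2.67 ± 0.26, adjusted p = 2.02e-05). Ccl12, a chemokine for monocytes, rose with a wide spread, from 4.27, 3.44, 2.95 and 4.54 CPM to 14.5, 24 and 83.6 CPM (log2FC 3.02 ± 0.49, adjusted p = 0.000998), its highest value being that of GA-Camk2a 16. Ccl5 rose from 0.986, 1.63, 2.95 and 3.59 CPM to 5.29, 8.72 and 54.2 CPM (log2FC 2.76 ± 0.65, adjusted p = 0.0127). Its call was lost without control 11 (adjusted p = 0.065) or control 37 (adjusted p = 0.054). The remaining leading rises were the chemokine Ccl6 (2.63), the beta-glucan receptor Clec7a (2.84) and the interferon-stimulated genes Oasl2, Ifit1 and Ifit3 (2.50, 2.47 and 2.44).

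**Figure D2:**
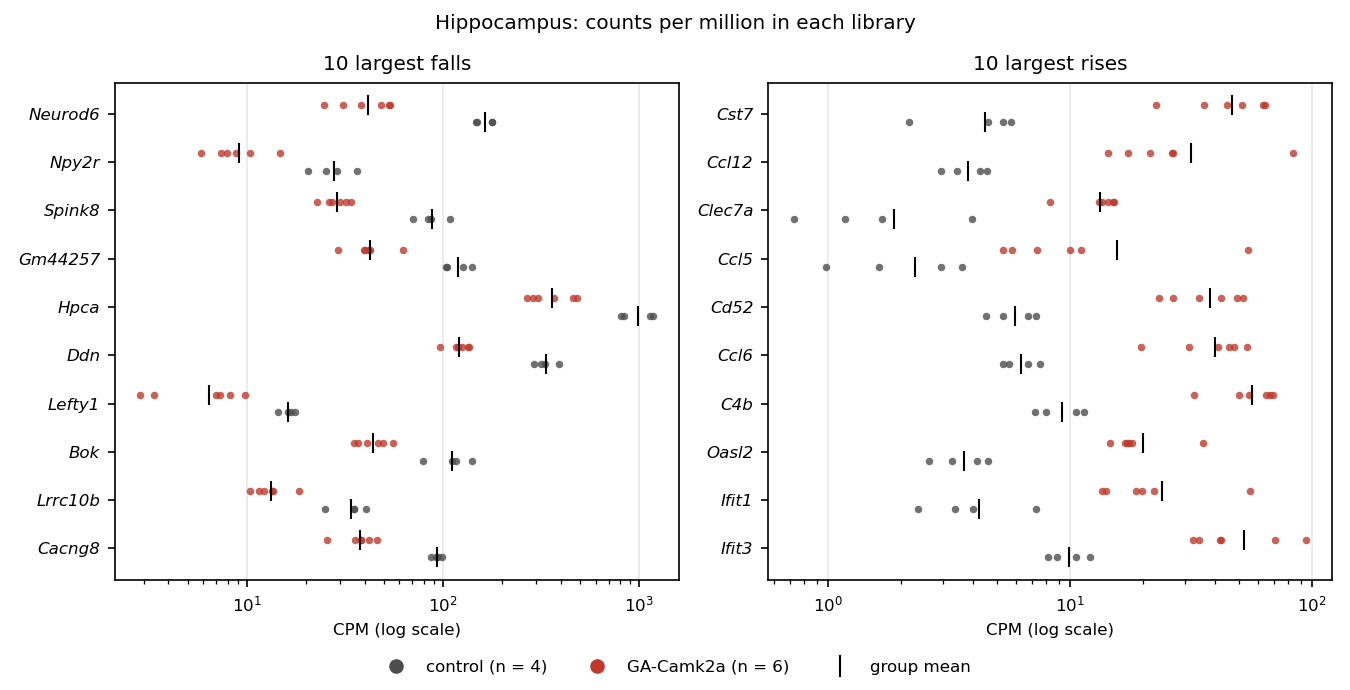
CPM (log axis) of the 10 largest falls and the 10 largest rises in each of 4 control libraries (grey) and 6 GA-Camk2a libraries (red), with a black line at each group mean. These genes were chosen among those of mean log2 CPM 3 or higher for having no shared range, and Neurod6 separates the groups by a gap from 53.5 to 148 CPM.

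Pyramidal cell markers of the CA1, CA2 and CA3 fields were among the genes that fell. Of 10 tested markers of CA1 pyramidal cells, 5 fell and 0 rose, with a median log2 fold change of -0.69. Among 8 CA3 markers 6 fell, with a median of -0.59. Among 9 CA2 markers 2 fell (22.2%, beside 10.9% of all genes, and 4 with a choroid plexus covariate), with a median of -0.33. Of 14 dentate granule cell markers 1 fell and 1 rose (14.3%, beside 10.9% of all genes), with a median of -0.02, beside 0.02 for all genes. Prox1, the transcription factor that defines granule cells, was at 44.4, 37.8, 37.7 and 47.6 CPM in control and at 36.2, 46 and 73.4 CPM in GA-Camk2a libraries, with overlapping values (log2FC 0.21 ± 0.17, adjusted p = 0.494). Whether the fields differed in their change was not tested.

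Within CA1, Spink8 was at 84.4, 87, 109 and 70.1 CPM in control and 22.8, 28.7 and 34.2 CPM in GA-Camk2a libraries, so the highest transgenic value was below 35 and the lowest control value above 70 CPM. Wfs1, wolframin of the endoplasmic reticulum, was at 46.3, 57.7, 63.7 and 61.9 CPM against 25.2, 32 and 39 CPM, without overlap (log2FC -0.83 ± 0.13, adjusted p = 0.00086). Fibcd1 fell (log2FC -1.05 ± 0.23, adjusted p = 0.007) with a small overlap, from 51.3, 44.1, 50.1 and 29.9 CPM to 11.7, 17.3 and 31.3 CPM. In CA2 the fallen genes were Rgs14, a regulator of G protein signalling that limits plasticity there (68.7, 52.1, 67.2 and 63.1 CPM against 28.1, 33.4 and 38.5 CPM) and Amigo2, an adhesion protein (22.3, 23.5, 20.0 and 26.3 CPM against 7.92, 11.6 and 17.6 CPM). Both were lower in every transgenic library (log2FC -0.92 ± 0.11, adjusted p = 7.28e-05 for Rgs14 and log2FC -0.95 ± 0.18, adjusted p = 0.00253 for Amigo2). In CA3, Bok was at 111, 79.2, 116 and 141 CPM against 35.2, 44 and 55.8 CPM (log2FC -1.33 ± 0.16, adjusted p = 7.42e-05). Cpne4, Homer3, Socs2 and Dkk3 had log2 fold changes between -0.80 and -0.58. The granule cell marker that fell was Lct, lactase (11.8, 7.05, 13.6 and 12.7 CPM against 2.15, 2.75 and 4.12 CPM), with no overlap (log2FC -1.88 ± 0.27, adjusted p = 0.000356). Igfbp5, which binds insulin-like growth factor, rose from 67.4, 76.3, 82.5 and 72.9 CPM to 117, 131 and 180.4 CPM (log2FC 0.90 ± 0.13, adjusted p = 0.000309). Immature neurons, which the dentate gyrus keeps making, gave 1 fallen gene of 9 (11.1%, beside 10.9% of all genes), Tubb3 (log2FC -0.33 ± 0.09, adjusted p = 0.0344), whose call was lost without control 20, control 31, control 37, GA-Camk2a 16, GA-Camk2a 23 or GA-Camk2a 35, with an Xist covariate and with scaling by total counts alone. Dcx, the doublecortin of migrating neuroblasts, did not pass (0.47 on the log2 scale).

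Spink8, Cacng8, Cpne6 and Cnih2 fell in GA-Camk2a hippocampus and did not pass in the cortex. The term for a difference of the genotype effect between the tissues passed in 59 of 14751 genes (0.4%), and 1479 passed at an unadjusted p under 0.05. Of the 58 that were tested in hippocampus alone as well, the effect was more negative in hippocampus for 37 and more positive for 21. In all, 30 were lower in GA-Camk2a hippocampus, of which 25 did not pass in cortex and 1, Lct, was too low to be tested there. Spink8, with a log2 fold change of -1.57 in hippocampus and 0.25 ± 0.22 SE in cortex, had the lowest p (difference -1.83, adjusted p = 0.000798). The next were Cacng8 (-1.30 against -0.13 in cortex), Cpne6, a calcium-binding copine of dendritic spines (-0.63 against 0.22), Cnih2, cornichon-2, which guides AMPA receptors to the membrane (-1.04 against -0.14), and Gm44257 (-1.48 against -0.08), with adjusted p-values of the difference from 0.000798 to 0.00259. Receptor and channel genes among the 59 were Gabra5 (-1.07 against -0.12), Npy2r (-1.59 against 0.29) and Scn3b (-0.97 against 0.02). Neurod6 and Hpca fell in both tissues and further in hippocampus (differences -1.23 and -0.96, adjusted p = 0.0271 for each). Homer3, a scaffold of metabotropic receptors, fell in hippocampus (-0.62) and was at 0.50 in cortex, where it did not pass (adjusted p = 0.0766), with a difference of -1.13 (adjusted p = 0.029). The vesicular glutamate transporter Slc17a7 (-0.86 against -0.27) and the peptide Cck (-0.96 against -0.24) belonged to the same set. In the other direction, Pde10a, a phosphodiesterase of striatal neurons, was at -0.12 in hippocampus and fell by 1.49 on the log2 scale in cortex (adjusted p of the difference = 0.00316). Ppp1r1b was at 0.43 in hippocampus and -1.10 in cortex (adjusted p of the difference = 0.0337). In hippocampus it was at 61.1, 97.5, 57.2 and 97.8 CPM in control and 56.8, 106 and 157 CPM in GA-Camk2a libraries, and the 5 libraries above 90 CPM (control 20 and 37, GA-Camk2a 16, 30 and 35) were those with the most Ttr, at 25704 CPM or more against at most 10898 CPM in the others. Of 5 tested striatal markers 3 passed the tissue term, Pde10a, Ppp1r1b and Rgs9, and each was lower in GA-Camk2a cortex. The part of choroid plexus and of striatal tissue in these differences was not tested. The count depended on single libraries, with 22 genes without hippocampus control 31 and 66 without cortex GA-Camk2a 30, and with the mouse as a replicate block, which pairs the tissues, it was 67, of which 42 were shared.

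**Figure D3:**
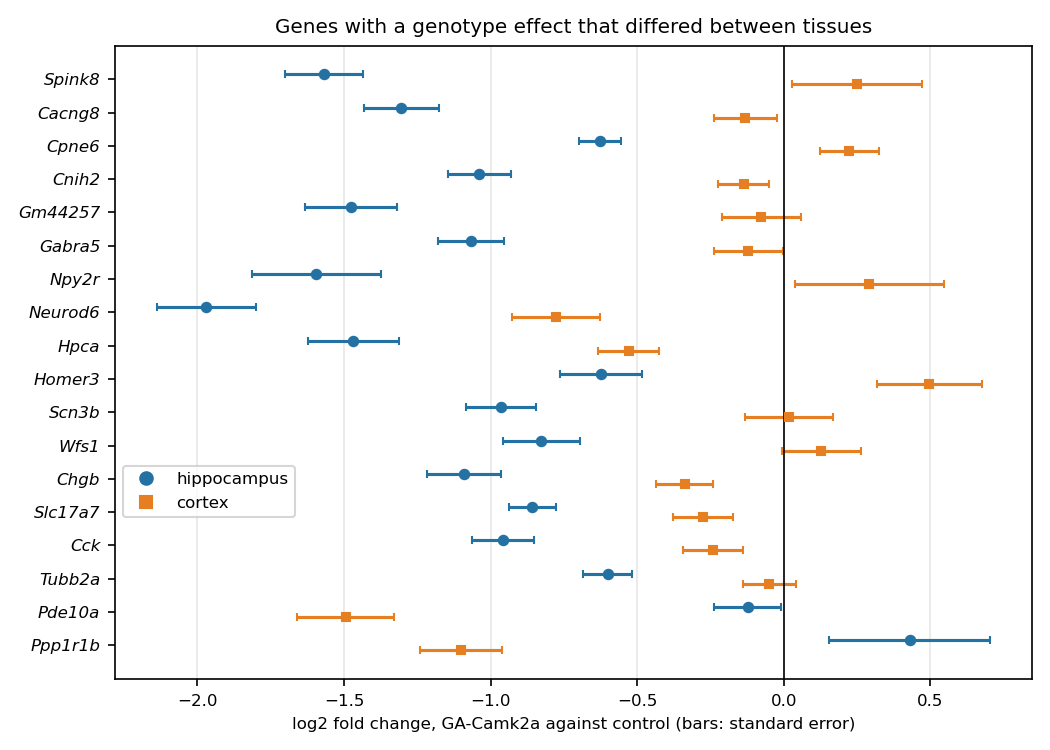
Log2 fold change of GA-Camk2a against control, with bars of 1 standard error, in hippocampus (blue circles) and cortex (orange squares) for 18 genes whose genotype effect differed between the tissues. Spink8 lies at -1.57 in hippocampus and 0.25 in cortex, while Pde10a lies at -0.12 in hippocampus and -1.49 in cortex.

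Genes of the postsynaptic side of glutamate synapses were lower. Of 21 NMDA receptor and scaffold genes 14 fell and 0 rose, with a median of -0.53, and of 24 AMPA and kainate receptor genes 8 fell, with a median of -0.40. Among receptor subunits, Grin2a was at 233, 218, 255 and 215 CPM in control and 106, 132 and 149 CPM in GA-Camk2a libraries, without overlap (log2FC -0.85 ± 0.10, adjusted p = 9.92e-05). Grin2b (log2FC -0.64 ± 0.12, adjusted p = 0.00309), Gria2 (log2FC -0.45 ± 0.10, adjusted p = 0.00678), Gria1 (log2FC -0.48 ± 0.11, adjusted p = 0.0127) and the obligatory subunit Grin1 (log2FC -0.48 ± 0.12, adjusted p = 0.0136) were lower as well. The Gria1 call was lost without control 11 (adjusted p = 0.0566) or control 31 (adjusted p = 0.058), and that of Grin1 without control 31 (adjusted p = 0.0523). Among auxiliary subunits, Cacng8 was at 99.2, 91.9, 94.9 and 86.8 CPM against 25.7, 38.3 and 46 CPM. Cnih2 was at 313, 333, 396 and 377 CPM against 143, 168 and 208 CPM. Both were lower (log2FC -1.30 ± 0.13, adjusted p = 2.02e-05 for Cacng8 and log2FC -1.04 ± 0.11, adjusted p = 2.76e-05 for Cnih2). Nptx1 and its receptor Nptxr, which cluster AMPA receptors from outside, fell by 0.68 and 0.69 on the log2 scale. The scaffolds Shank1, Shank3 and Homer2, which hold the postsynaptic density together, were at -0.85, -0.90 and -0.89, and Dlg3, Dlg4, Dlgap3, Dlgap4, Shank2 and Homer1 were among the remaining falls.

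Calcium signalling downstream of these receptors was lower in most of its genes. In the list of CaMKII, calcineurin and calmodulin-binding proteins 20 of 25 genes fell and 0 rose, with a median of -0.63, and the count was 19 or 20 in every leave-one-out fit. Camk2a, the alpha subunit of calcium/calmodulin-dependent kinase II and the gene whose promoter drives Cre in the model, was at 933, 784, 957 and 859 CPM in control and 346, 398 and 450.4 CPM in GA-Camk2a libraries. Ppp3ca, the catalytic subunit of calcineurin, was at 1449.9, 1383, 1501 and 1314 CPM against 662, 731 and 817 CPM. Both were lower in every GA-Camk2a library than in any control (log2FC -1.15 ± 0.09, adjusted p = 5.02e-06 for Camk2a and log2FC -0.96 ± 0.07, adjusted p = 4.48e-06 for Ppp3ca). Prkcb, a calcium-dependent protein kinase C (log2FC -1.16 ± 0.14, adjusted p = 8e-05), and Nrgn, neurogranin, which holds calmodulin in spines (log2FC -0.88 ± 0.11, adjusted p = 0.000153), fell as well, and the kinases Camk2b, Camk4 and Camkk2 and all 3 calmodulin genes were lower. Camk2g (0.20) and Camk2d (-0.03) did not pass. In cyclic nucleotide signalling 5 of 23 genes fell (21.7%, beside 10.9% of all genes), led by the calcium-activated adenylyl cyclase Adcy1 (log2FC -0.73 ± 0.14, adjusted p = 0.00396) and Rapgef4, a sensor of cyclic AMP (log2FC -0.72 ± 0.10, adjusted p = 0.000307), with a list median of -0.12.

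Inhibitory receptors and ion channels fell in part. Of 15 GABA receptor genes 4 fell (26.7%, beside 10.9% of all genes), with a median of -0.20. Gabra5, the subunit of extrasynaptic receptors for which the hippocampus is known, was at 161, 127, 149 and 122 CPM in control and 56.8, 67.9 and 76.2 CPM in GA-Camk2a libraries. Its genotypes did not overlap (log2FC -1.07 ± 0.11, adjusted p = 3.14e-05), and Gabbr2 followed at a smaller size (-0.50). Of 28 sodium and calcium channel and pump genes 15 fell (9 without control 31), with a median of -0.36. The sodium channel subunits Scn3b (log2FC -0.97 ± 0.12, adjusted p = 0.000107) and Scn2b (log2FC -0.67 ± 0.12, adjusted p = 0.0015) were among them. The calcium pump Atp2b1 of the plasma membrane was at 737, 659.9, 798 and 626 CPM against 285, 410.1 and 419.5 CPM and fell in every transgenic library (log2FC -0.89 ± 0.11, adjusted p = 0.000127). Of 40 potassium and HCN channel genes 8 fell (20.0%, beside 10.9% of all genes, and 5 falls with an Xist covariate), with a median of -0.20, among them Kcnv1 (log2FC -1.01 ± 0.21, adjusted p = 0.00496) and the beta subunit Kcnab2 (log2FC -0.75 ± 0.09, adjusted p = 9.68e-05). Muscarinic and adenosine receptors were lower too, Chrm3 at 32.9, 35.4, 41.9 and 33.5 CPM against 9.53, 15.6 and 18.4 CPM (log2FC -1.26 ± 0.16, adjusted p = 0.000127). Chrm1 was at -0.79 and Adora1 at -0.68 on the log2 scale, and these with Npy2r were the 4 fallen genes of 20 amine, acetylcholine, opioid and peptide receptors (20.0%, beside 10.9% of all genes).

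On the presynaptic side 18 of 25 synaptic vesicle genes fell (13 without control 31 and 13 with scaling by total counts alone), with a median of -0.42. Slc17a7, which fills vesicles with glutamate, was at 423, 371, 403 and 440.3 CPM in control and 186, 222 and 277 CPM in GA-Camk2a libraries. Unc13a, which primes vesicles and is a risk gene of amyotrophic lateral sclerosis, was at 84.1, 76.1, 96.7 and 92.6 CPM against 37.4, 47.6 and 55.2 CPM. The genotypes were apart in both (log2FC -0.86 ± 0.08, adjusted p = 1.57e-05 for Slc17a7 and log2FC -0.88 ± 0.11, adjusted p = 0.000136 for Unc13a). The calcium sensor Doc2b (log2FC -0.97 ± 0.18, adjusted p = 0.00231), the SNARE protein Stx1a (log2FC -0.74 ± 0.10, adjusted p = 0.000165), Syn1, Snap25, Syp and Vamp2 were lower. In secretory granules Chgb, chromogranin B, was at 144, 128, 195 and 152 CPM against 51.3, 76.1 and 78.5 CPM, without overlap (log2FC -1.09 ± 0.13, adjusted p = 7.28e-05). The peptide convertase Pcsk2 fell (log2FC -0.52 ± 0.10, adjusted p = 0.00296) and Scg3, which sorts granins, rose (log2FC 0.39 ± 0.07, adjusted p = 0.00291, and not called with no filter), as 2 lower and 1 higher of 15 granule genes (20.0%, beside 10.9% of all genes). Of 15 neuropeptide genes Cck fell and Vip rose (13.3%, beside 10.9% of all genes, and 2 falls without control 11, control 37 or GA-Camk2a 30 and 3 without GA-Camk2a 41). Cck was at 484, 538, 599 and 594 CPM against 217, 297 and 324 CPM. Vip, a peptide of interneurons, was at 16.1, 14.5, 13.6 and 18.9 CPM against 25.9, 32.8 and 52.1 CPM. Each peptide separated the genotypes, in opposite directions (log2FC -0.96 ± 0.11, adjusted p = 5.36e-05 for Cck and log2FC 1.16 ± 0.18, adjusted p = 0.000781 for Vip).

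Axonal and cytoskeletal genes followed. Of 24 neurofilament, tubulin and transport motor genes 15 fell (9 without control 31), with a median of -0.33. Kif5a, a kinesin of axonal transport, was at 639, 618, 669.6 and 544 CPM in control and 282, 331 and 375 CPM in GA-Camk2a libraries, and Nefl, the light neurofilament chain, at 487, 455, 508 and 541 CPM against 264, 308 and 372 CPM. Neither overlapped (log2FC -0.89 ± 0.09, adjusted p = 2.76e-05 for Kif5a and log2FC -0.69 ± 0.09, adjusted p = 0.000165 for Nefl). Synaptic adhesion genes fell in 11 of 24 cases, with a median of -0.31, led by Olfm1 (log2FC -0.89 ± 0.08, adjusted p = 9.35e-06) and Slitrk3 (log2FC -0.68 ± 0.12, adjusted p = 0.0017). This count was 5 with scaling by total counts alone, 6 with an Xist covariate, 5 without control 11, 6 without control 20 and 7 without GA-Camk2a 16 or GA-Camk2a 35. Among 36 guidance genes 9 fell and 1 rose (5 falls without control 11, and 0 rises without control 20, 2 without control 11 and 3 without GA-Camk2a 30), with a median of -0.05. The Eph receptor Epha7 was at 130.1, 94.8, 123 and 112 CPM against 44.2, 60.8 and 86.8 CPM (log2FC -0.92 ± 0.15, adjusted p = 0.000876). Of 19 forebrain transcription factors 7 fell, including Neurod2 (log2FC -0.73 ± 0.12, adjusted p = 0.00111), Zbtb18 (log2FC -0.80 ± 0.11, adjusted p = 0.000263) and Bcl11a (log2FC -0.71 ± 0.11, adjusted p = 0.000651). Ncan, neurocan of perineuronal nets, fell (log2FC -0.80 ± 0.11, adjusted p = 0.000328) among 27 matrix genes, of which 4 were lower and 3 higher (25.9%, beside 10.9% of all genes).

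Activity-dependent genes, which neurons switch on within minutes to hours of firing, were lower in 9 of 19 cases and higher in 0, with a median of -0.39. Egr1 was at 37.8, 46.5, 56.6 and 54.5 CPM in control and 19.6, 22.3 and 30.9 CPM in GA-Camk2a libraries, without overlap (log2FC -1.02 ± 0.15, adjusted p = 0.000356). Arc, which regulates AMPA receptors at synapses, was at 49.6, 42.3, 96.7 and 58.6 CPM against 12.2, 20.1 and 43.4 CPM, and Nr4a2 at 34.2, 45.4, 50.7 and 33.2 CPM against 15.1, 18.3 and 35.5 CPM. Both fell (log2FC -1.37 ± 0.30, adjusted p = 0.00736 for Arc and log2FC -0.94 ± 0.21, adjusted p = 0.00871 for Nr4a2), and in both the top transgenic library, GA-Camk2a 34 for each, lay within the control range. Fos was at 10.8, 11.2, 15.9 and 12.7 CPM against 8.43, 12.6 and 17 CPM, in the same range in both genotypes (log2FC 0.04 ± 0.20, adjusted p = 0.93). In GA-Camk2a 34 the mean of the list was 0.03 above that of controls on the log2(CPM + 1) scale, while the other transgenic libraries were between -0.68 and -0.44. The cAMP response element TGACGTCA was searched on both strands of RefSeq promoters of GRCm38.p6, from 250 bases before to 50 bases after the start of each gene. It occurred in 2 of 16 list members with a promoter there, Dusp1 and Btg2, against 2.03% of all 27025 genes, and in 0 of the 6 that fell.

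**Figure D4:**
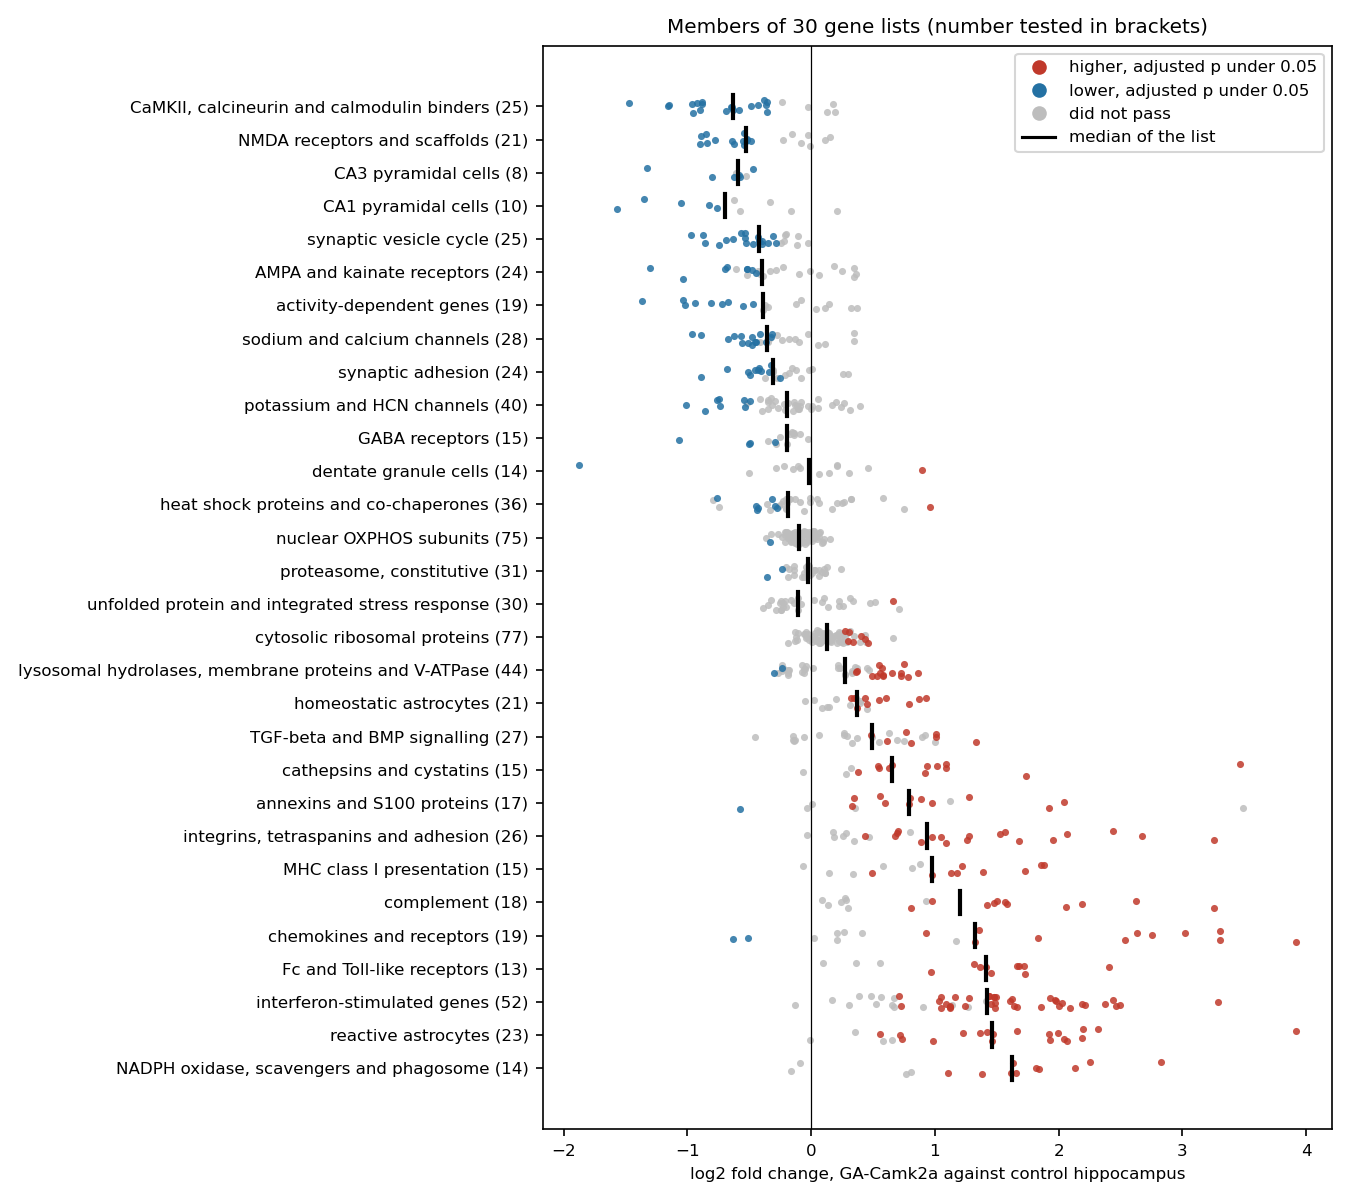
Log2 fold change of GA-Camk2a against control for each tested member of 30 gene lists (points), with members that passed the test in red (higher) or blue (lower), the others in grey, and a black bar at the median of each list. The CaMKII list lies almost wholly below 0, with a median of -0.63, the subunits of oxidative phosphorylation lie close to 0 and mostly below it, with a median of -0.10, and the interferon-stimulated genes lie above 0, with a median of 1.42.

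Most interferon-stimulated genes rose. Of 69 listed members 52 were tested, of which 38 rose and 0 fell, with a median of 1.42. The filter on low counts can admit a gene by its level in GA-Camk2a libraries alone, so shares of lists hold for tested members only. The mean level of the list was 0.85 to 1.73 above the control mean on the log2(CPM + 1) scale in the GA-Camk2a libraries, highest in GA-Camk2a 16. The count was 33 without GA-Camk2a 16, 36 without GA-Camk2a 41, 30 without control 20 or control 37 and 29 with an Xist covariate. Ifit3, which blocks viral RNA translation with its partners, was at 12.2, 8.86, 10.6 and 8.13 CPM in control and 32.4, 42 and 94.9 CPM in GA-Camk2a libraries. Ifit1 was at 7.23, 3.98, 2.36 and 3.35 CPM against 13.6, 19.3 and 55.3 CPM and Oasl2 at 4.6, 3.26, 4.13 and 2.63 CPM against 14.7, 17.3 and 35.6 CPM. All 3, which are among the leading rises above, were higher (log2FC 2.44 ± 0.30, adjusted p = 0.000106 for Ifit3, log2FC 2.47 ± 0.40, adjusted p = 0.00093 for Ifit1 and log2FC 2.50 ± 0.28, adjusted p = 5.36e-05 for Oasl2), with the highest Ifit1 and Oasl2 values in GA-Camk2a 16. Isg15, a ubiquitin-like modifier, rose from 0.329, 0.181, 1.77 and 0.478 CPM to 1.76, 5.15 and 8.43 CPM with an overlap of a single control library (log2FC 3.28 ± 0.52, adjusted p = 0.000862). The transcription factors of the response were higher, with Irf7 at 2.37, Irf8 at 1.49 and Irf9 at 1.44 on the log2 scale, while Stat2, Irf1 and Irf5 did not pass. The guanylate-binding proteins Gbp2, Gbp3 and Gbp7 rose by 1.67, 1.62 and 1.05, the immunity-related GTPase Irgm1 by 1.24, and the RNA sensors Ifih1 and Ddx58 by 1.28 and 1.12. Close family members such as Ifit3 and Ifit3b share sequence, so how counts were split between them is uncertain.

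A sequence to which interferon-activated factors are known to bind was searched in promoters, and matches of 4 interferon-stimulated genes and of B2m, of MHC class I presentation, are shown because these genes rose here and the element can be read beside their values. They are taken from RefSeq promoters of build GRCm38.p6, each as 30 bases written 5′ to 3′ on the strand given, with the match to GAAA, any 2 bases and GAAA in capitals.
Ifit1 (chr19:34640794-34640823, minus strand): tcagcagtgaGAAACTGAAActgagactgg
Ifit3 (chr19:34583397-34583426, minus strand): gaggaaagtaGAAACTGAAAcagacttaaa
Isg15 (chr4:156200871-156200900, minus strand): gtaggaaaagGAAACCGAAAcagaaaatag
Gbp2 (chr3:142620594-142620623, minus strand): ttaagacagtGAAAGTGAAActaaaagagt
B2m (chr2:122147538-122147567, plus strand): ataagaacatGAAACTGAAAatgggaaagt
Searched on both strands, with overlapping matches counted once per gene, this pattern occurred in 3.99% of the 27025 promoters of the table and in 27 of the 52 interferon-stimulated genes that had a promoter there (51.9%). Members that rose had it in 17 of 30 cases (56.7%), members that did not pass in 5 of 13 (38.5%) and members too low to test in 5 of 9. In MHC class I presentation 5 of 17 genes had it (29.4%), in 2 of 9 cases among members that rose, B2m being one, and in 3 of 4 among those that did not pass. A match describes these letters in this window and is not a measured binding site.

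Antigen presentation genes rose with the interferon-stimulated genes. Of 20 listed MHC class I genes 15 were tested and 9 rose, with a median of 0.97. B2m, the invariant light chain, was at 190.2, 210.1, 219.9 and 215 CPM in control and 413, 581 and 637 CPM in GA-Camk2a libraries, and H2-D1, a heavy chain, at 45.7, 38.5, 37.7 and 49.5 CPM against 128, 149.7 and 202 CPM. No transgenic library reached down to the controls for either (log2FC 1.38 ± 0.11, adjusted p = 5.02e-06 for B2m and log2FC 1.88 ± 0.15, adjusted p = 4.48e-06 for H2-D1). The immunoproteasome subunit Psmb8 was higher (log2FC 1.86 ± 0.28, adjusted p = 0.000653). Of 31 subunits of the constitutive proteasome 0 were higher and 2 lower (6.45%, beside 10.9% of all genes), and 0 were lower without control 20, control 31, control 37, GA-Camk2a 16 or GA-Camk2a 41 (1 without control 11, GA-Camk2a 23, GA-Camk2a 30 or GA-Camk2a 34). H2-D1 and H2-K1 are close paralogs and their counts are uncertain in the same way as those of the Ifit genes. In MHC class II, 5 of 9 listed genes were tested and 3 rose. Cd74, the invariant chain, was at 48.3, 26.4, 19.5 and 30.1 CPM against 57.6, 133 and 389 CPM (log2FC 2.42 ± 0.45, adjusted p = 0.00288). H2-Ab1 rose (log2FC 1.87 ± 0.38, adjusted p = 0.00479), and H2-Aa rose (log2FC 2.22 ± 0.52, adjusted p = 0.0126) with calls lost without control 20 (adjusted p = 0.0739) or control 31 (adjusted p = 0.0526).

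Chemokines of monocytes and T cells rose from low control levels. Of 29 listed chemokine and receptor genes 19 were tested, of which 11 rose and 2 fell, with a median of 1.33 (8 rises without GA-Camk2a 16, and 1 fall without control 11, control 20, control 37 or any GA-Camk2a library but 16 and 41). Cxcl10, which attracts T cells, was near the detection limit in controls, at 0.329, 0.362, 0 and 1.2 CPM, and at 2.94, 5.67 and 23.5 CPM in GA-Camk2a libraries (log2FC 3.92 ± 0.58, adjusted p = 0.000468). Ccl2 was at 1.31, 0.181, 1.77 and 1.2 CPM against 3.07, 6.23 and 23.5 CPM and Ccl3 at 1.31, 0.543, 1.77 and 0.957 CPM against 6.53, 8.04 and 18.4 CPM. No value was shared between the genotypes in any of the 3 (log2FC 3.30 ± 0.58, adjusted p = 0.00173 for Ccl2 and log2FC 3.30 ± 0.41, adjusted p = 0.000106 for Ccl3). The neuronal ligand Cx3cl1, fractalkine, ran the other way from its microglial receptor Cx3cr1, with 189.9, 167, 222 and 217 CPM in control and 107, 123 and 161 CPM in GA-Camk2a libraries for the ligand. The receptor was at 20.7, 20.3, 28.3 and 22.2 CPM against 30.4, 44 and 58.3 CPM. Cx3cl1 fell (log2FC -0.63 ± 0.11, adjusted p = 0.00222) and Cx3cr1 rose (log2FC 0.93 ± 0.15, adjusted p = 0.00108).

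Csf1, a ligand of the receptor that microglia need to survive, rose, and the call of the alternative ligand Il34 depended on the setting. Csf1 was at 12.2, 12.8, 11.2 and 15.1 CPM in control and 21.8, 28.2 and 34.1 CPM in GA-Camk2a libraries, and Il34, its alternative ligand made by neurons, at 19.4, 17.7, 17.1 and 21.5 CPM against 11.7, 13.2 and 15.8 CPM. Csf1 rose (log2FC 1.10 ± 0.17, adjusted p = 0.000623) and Il34 fell (log2FC -0.52 ± 0.14, adjusted p = 0.0255). The Il34 call was lost without control 11, control 20, control 37 or GA-Camk2a 16 (adjusted p from 0.0534 to 0.0941), with DESeq2, with an Xist covariate, with scaling by total counts alone and with no filter on low counts. The receptor Csf1r was at 51.3, 44.5, 51.9 and 43.5 CPM against 57.6, 78.2 and 85.8 CPM and rose (log2FC 0.67 ± 0.12, adjusted p = 0.00182). Of 41 listed cytokine and receptor genes 22 were tested, of which 10 rose and 3 fell, with a median of 0.52. The falls numbered 0 without control 11 and 1 without control 31 or control 37. The rises numbered 4 without control 20, 6 without control 31 and 5 without control 37. Osmr, the receptor of oncostatin M (log2FC 1.93 ± 0.31, adjusted p = 0.000874), and Il13ra1 (log2FC 1.01 ± 0.22, adjusted p = 0.00709) passed in every leave-one-out fit. Among 33 growth factor genes 7 rose and 1, Nell2, fell (2 falls without GA-Camk2a 41), with a median of 0.08. The rises included Spp1, osteopontin (48.6, 26.2, 27.1 and 32.5 CPM against 63.5, 112 and 227 CPM, log2FC 1.90 ± 0.35, adjusted p = 0.00231), and Igf1 (log2FC 1.06 ± 0.21, adjusted p = 0.00492).

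Of 28 listed complement genes 18 were tested, of which 11 rose and 0 fell, with a median of 1.20. C1qa, which starts the classical pathway, was at 58.8, 56.2, 61.3 and 68.9 CPM in control and 121, 183 and 193 CPM in GA-Camk2a libraries. C3ar1, the receptor of the C3a fragment, was at 2.96, 3.26, 4.72 and 3.11 CPM against 7.97, 12.7 and 22.3 CPM. Both separated the genotypes (log2FC 1.50 ± 0.13, adjusted p = 6.69e-06 for C1qa and log2FC 2.06 ± 0.31, adjusted p = 0.000633 for C3ar1), and C1qb (1.48) and C1qc (1.58) were at similar values. C3 itself was at 2.63, 1.99, 2.36 and 3.59 CPM against 2.35, 9.74 and 30.4 CPM, with an overlap (log2FC 2.19 ± 0.52, adjusted p = 0.0134). It did not pass without control 11 (adjusted p = 0.0523) or control 20 (adjusted p = 0.0537), nor with limma-voom. Among inhibitors of the cascade Serping1 rose (log2FC 1.42 ± 0.22, adjusted p = 0.000706), and Cd46, Cd55 and Cd59a did not pass.

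**Figure D5:**
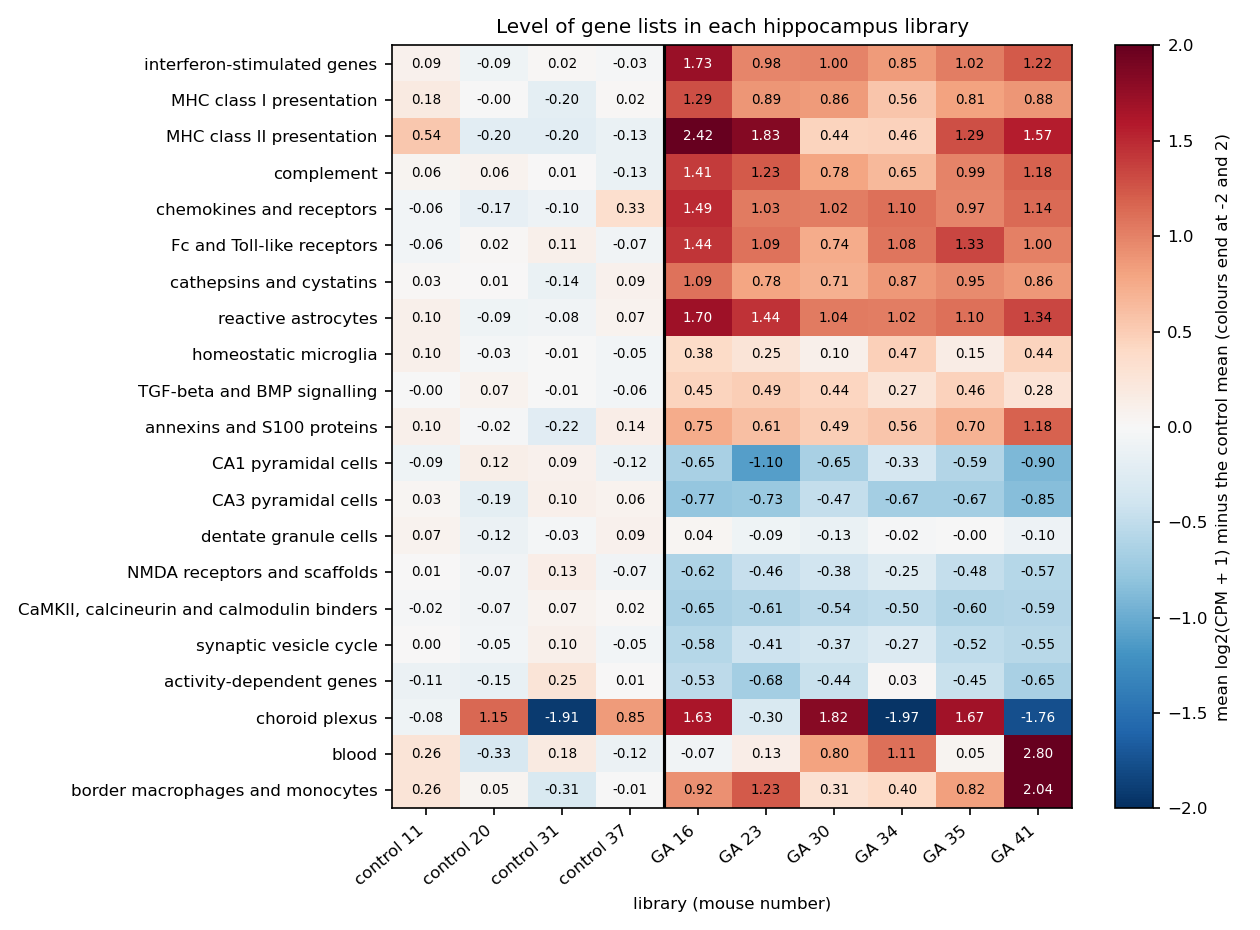
Mean log2(CPM + 1) of the tested members of 21 gene lists in each of the 10 hippocampus libraries, minus the mean of the control libraries (colour and printed value, colours end at -2 and 2). The interferon-stimulated genes are highest in GA-Camk2a 16 at 1.73, the CA1 list is lowest in GA-Camk2a 23 at -1.10, and the choroid plexus list varies within both genotypes.

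Receptors and signalling proteins of microglia rose with complement. Of 25 listed Fc and Toll-like receptor genes 13 were tested and 10 rose, with a median of 1.42. Cd14, a co-receptor for bacterial lipids, was at 4.93, 3.44, 5.89 and 3.59 CPM in control and 13.8, 22.4 and 29.4 CPM in GA-Camk2a libraries (log2FC 2.41 ± 0.27, adjusted p = 4.84e-05). Among 16 tested genes of Trem2, Csf1r and myeloid kinase signalling (25 listed) 10 rose. The adaptor Tyrobp was at 63.4, 60.8, 58.9 and 69.8 CPM against 135, 199.9 and 222 CPM, with no shared range (log2FC 1.60 ± 0.13, adjusted p = 5.02e-06), and the phosphatase Ptpn6, which restrains such receptors, rose as well (log2FC 1.77 ± 0.24, adjusted p = 0.00027). In the oxidase and phagosome list 10 of 14 tested genes (19 listed) rose, with a median of 1.62. Cybb, the catalytic subunit of the phagocyte oxidase, was at 0.986, 1.09, 0 and 1.44 CPM against 3.68, 6.6 and 17.6 CPM. Lyz2, lysozyme, was at 34.5, 26.4, 26.5 and 33.7 CPM against 90.8, 128 and 228 CPM. Each was apart from controls (log2FC 2.83 ± 0.50, adjusted p = 0.00181 for Cybb and log2FC 2.25 ± 0.23, adjusted p = 2.76e-05 for Lyz2). Of 29 listed lectins and sialic acid receptors only 10 were abundant enough to test, and 8 of these rose. Of 32 listed integrins, tetraspanins and other adhesion genes 26 were tested and 18 rose. Itgax was at 0.329, 0.904, 0.589 and 0.478 CPM against 5.21, 6.14 and 7.88 CPM (log2FC 3.25 ± 0.35, adjusted p = 3.78e-05), and Cd44, the hyaluronan receptor, rose (log2FC 2.07 ± 0.29, adjusted p = 0.000307). Of 22 myeloid transcription factors 9 rose, including Spi1, the master regulator PU.1 (log2FC 1.50 ± 0.26, adjusted p = 0.00154), and Irf8 (log2FC 1.49 ± 0.17, adjusted p = 5.36e-05).

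Of 19 genes that mark resting microglia 6 rose and 0 fell, with a median of 0.39. P2ry12, the receptor with which resting microglia sense nucleotides, was at 39.8, 40.3, 34.2 and 37.1 CPM in control and 25.9, 30.4 and 49.6 CPM in GA-Camk2a libraries, and Tmem119 at 7.89, 8.86, 5.3 and 6.7 CPM against 7.01, 9.38 and 15 CPM. Both overlapped and did not pass (adjusted p = 0.57 for P2ry12 and 0.254 for Tmem119). In the actin list 7 genes rose and 6 fell of 27. Capg (log2FC 1.92 ± 0.21, adjusted p = 3.83e-05), Dock2 (log2FC 1.68 ± 0.30, adjusted p = 0.00222) and Lcp1 (log2FC 1.21 ± 0.25, adjusted p = 0.00539), which are known from motile leukocytes, rose. Coro1a (log2FC -0.46 ± 0.08, adjusted p = 0.00169), Arpc3 (log2FC -0.61 ± 0.14, adjusted p = 0.0114), Arpc2, Arpc5 and Fmnl1 fell. The Arpc3 call was lost without control 31 (adjusted p = 0.0556) or control 37 (adjusted p = 0.0507).

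Astrocyte genes rose in both their reactive and their resting lists. Of 23 reactive astrocyte genes 19 rose, with a median of 1.46, and of 21 resting astrocyte genes 10 rose (6 without control 20), with a median of 0.37. Gfap, the intermediate filament of reactive astrocytes, was at 445, 294, 337 and 417 CPM in control and 1374, 1909 and 2037 CPM in GA-Camk2a libraries, and Vim at 44, 47.4, 48.9 and 53.1 CPM against 155, 224 and 307 CPM. These had some of the smallest adjusted p-values among the rises (log2FC 2.32 ± 0.14, adjusted p = 4.1e-07 for Gfap and log2FC 2.19 ± 0.17, adjusted p = 4.48e-06 for Vim). Aqp4, the water channel of astrocyte endfeet, was at 84.4, 80.8, 99 and 101 CPM against 138, 171 and 186 CPM (log2FC 0.88 ± 0.10, adjusted p = 8.43e-05). The glutamate transporter Slc1a3 rose (log2FC 0.55 ± 0.09, adjusted p = 0.00131), while Slc1a2, Glul and Gja1 did not pass. Of 9 serpins 4 rose, with the protease inhibitor Serpina3n at 50.6, 45.2, 41.9 and 43.5 CPM against 139, 151 and 302 CPM (log2FC 2.00 ± 0.20, adjusted p = 2.76e-05). Annexins and S100 proteins rose in 11 of 17 cases (7 without control 20 or control 31) and fell in 1 (0 without control 31, control 37 or GA-Camk2a 16). S100a6 was at 36.5, 31.8, 31.8 and 31.8 CPM against 88.9, 120.2 and 277 CPM (log2FC 2.04 ± 0.25, adjusted p = 9.92e-05), highest in GA-Camk2a 23.

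Of 27 genes of TGF-beta and BMP signalling, which sets glial states, 7 rose and 0 fell, with a median of 0.49. Tgfbr2 was at 10.5, 8.5, 10.6 and 7.17 CPM in control and 15.8, 22.9 and 27.5 CPM in GA-Camk2a libraries. Bmpr1b, a BMP receptor, was at 7.56, 10.5, 10.0 and 6.46 CPM against 14.1, 16.5 and 23 CPM. The target Id3, an inhibitor of basic helix-loop-helix factors, was at 60.8, 77.9, 58.9 and 91.1 CPM against 125, 139 and 176 CPM. None of these shared a range between the genotypes (log2FC 1.33 ± 0.19, adjusted p = 0.000333 for Tgfbr2, log2FC 1.01 ± 0.18, adjusted p = 0.00179 for Bmpr1b and log2FC 1.01 ± 0.14, adjusted p = 0.000262 for Id3). Id1, Id2 and Id4 rose too, and the ligands Tgfb1, Tgfb2, Tgfb3, Bmp4 and Bmp6 did not pass. Wnt signalling gave 2 falls of 21 (9.52%, beside 10.9% of all genes, and 1 fall without control 11, control 20, control 37, GA-Camk2a 16 or GA-Camk2a 30), the steadier being Dkk3, a secreted Wnt modulator (log2FC -0.58 ± 0.12, adjusted p = 0.00498). Most Wnt genes nevertheless had positive fold changes (18 of 21, list median 0.21). With a choroid plexus covariate 3 rose and 2 fell, and without GA-Camk2a 16 1 rose and 1 fell.

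Lysosomal proteases of the cathepsin family were higher. Of 15 cathepsins and cystatins 12 rose, with a median of 0.65. Ctss, the cathepsin that trims the invariant chain, was at 107, 79, 82.5 and 83.9 CPM in control and 205, 291 and 404 CPM in GA-Camk2a libraries, without overlap (log2FC 1.74 ± 0.16, adjusted p = 1.04e-05). Ctsc (1.09), Ctsh (1.09), Ctsz, Ctsd, Ctsl and Ctsb followed. Of 44 other lysosomal genes 15 rose and 2 fell, with a median of 0.27. The falls were 0 without control 11, control 20, control 31, GA-Camk2a 23 or GA-Camk2a 41, 1 without control 37, GA-Camk2a 30 or GA-Camk2a 34 and 4 without GA-Camk2a 35. Grn, progranulin, was at 34.5, 34.9, 37.7 and 44.7 CPM against 45.7, 69.5 and 85 CPM (log2FC 0.86 ± 0.15, adjusted p = 0.00134). The CLEAR element GTCACGTG, a known site of lysosomal control, was in the promoter of 7 of the 33 list members with a promoter in the table (21.2%), against 2.55% of all genes. Members that rose had it in 2 of 10 cases (20.0%), members that did not pass in 4 of 22 (18.2%) and members that fell in 1 of 1.

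In protein quality control outside the lysosome 22.2% of heat shock, 14.8% of autophagy and 3.33% of stress response genes passed the test, beside 10.9% of all genes. Sqstm1, the autophagy receptor p62, rose from 295, 292, 302 and 323 CPM to 376, 404 and 461 CPM (log2FC 0.45 ± 0.07, adjusted p = 0.00123). The 27 autophagy genes gave 1 rise (2 without GA-Camk2a 34) and 3 falls (1 without control 20), and 2 rises and 1 fall with scaling by total counts alone. Of 36 heat shock proteins and co-chaperones 1 rose (2 without GA-Camk2a 34 or GA-Camk2a 41) and 7 fell (4 without control 20, control 31 or control 37), and 3 rose and 4 fell with scaling by total counts alone. Hspb8, a small chaperone, was at 18.4, 23.5, 18.9 and 29.2 CPM in control and 28.5, 45.9 and 52.8 CPM in GA-Camk2a libraries and rose (log2FC 0.96 ± 0.18, adjusted p = 0.00255). The large co-chaperone Hsph1 was at 204, 207, 199.8 and 206 CPM against 97.9, 116 and 176 CPM and fell (log2FC -0.76 ± 0.12, adjusted p = 0.000653). The unfolded protein and integrated stress response gave 1 rise of 30, Slc7a11 (log2FC 0.66 ± 0.16, adjusted p = 0.0138), which was lost without control 20 or control 37, and Atf4, Ddit3 and Asns did not pass. That count was 2 rises without control 11, GA-Camk2a 30 or GA-Camk2a 34. Falls numbered 0 in the main fit, 1 without GA-Camk2a 41 and at most 2 with 1 library left out. Of 24 genes linked to amyotrophic lateral sclerosis and frontotemporal dementia 6 fell and 2 rose (33.3%, beside 10.9% of all genes). Kif5a and Unc13a led the falls and Grn and Sqstm1 were the rises, and C9orf72, Tbk1, Optn and Sod1 did not pass.

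In metabolism 1 of 75 nuclear subunits of oxidative phosphorylation fell and 0 rose (1.33%, beside 10.9% of all genes). The fold changes were small but negative for 59 and positive for 16, with a median of -0.10, beside 0.02 for all genes. The fall was that of Cycs, cytochrome c (log2FC -0.33 ± 0.08, adjusted p = 0.0144), and its call was lost without control 20 (adjusted p = 0.0593). There were 2 falls without control 11 or GA-Camk2a 30 and 4 without GA-Camk2a 35. Of 12 mitochondrial genome transcripts 4 fell, and mt-Nd4 was at 9178, 9991, 9688 and 9886 CPM in control and 7143, 7585 and 8308 CPM in GA-Camk2a libraries (log2FC -0.34 ± 0.08, adjusted p = 0.0121). That count was 1 with scaling by total counts alone or an Xist covariate, 1 without any single control library and without GA-Camk2a 16, GA-Camk2a 23 or GA-Camk2a 41 and 2 without GA-Camk2a 30, and the lower mitochondrial share of the GA-Camk2a libraries moved with it. The part of RNA quality in this result was not tested. In glycolysis 5 of 24 genes fell (3 without control 11, control 20 or control 31) and 2 rose (1 without control 20, control 31, control 37 or GA-Camk2a 16), or 29.2%, beside 10.9% of all genes. The phosphofructokinase Pfkl was at 97.9, 81.4, 79.6 and 98.5 CPM against 46.3, 54.3 and 67.1 CPM (log2FC -0.69 ± 0.08, adjusted p = 9.92e-05), and the lactate transporter Slc16a1 rose (log2FC 0.55 ± 0.11, adjusted p = 0.00612). Metallothioneins and antioxidant enzymes rose in 8 of 29 cases (5 without control 31). Prdx6, a peroxiredoxin of astrocytes, was at 239, 256, 249 and 284 CPM against 424, 549.8 and 617 CPM (log2FC 1.05 ± 0.10, adjusted p = 1.33e-05), and the metallothionein Mt2 rose (log2FC 1.03 ± 0.13, adjusted p = 0.000165). Iron genes rose in 3 of 14 cases (21.4%, beside 10.9% of all genes), Cp (log2FC 1.23 ± 0.24, adjusted p = 0.00344) and Ftl1 (log2FC 0.73 ± 0.12, adjusted p = 0.00107) among them. Of 77 ribosomal protein genes 7 rose (9.09%, beside 10.9% of all genes), a count of 0 without control 20 or control 31, 3 without control 11, GA-Camk2a 16 or GA-Camk2a 35 and 4 without control 37 or GA-Camk2a 41, and 3 with an Xist covariate. Of 16 circadian clock genes 0 passed.

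Other cell types the dissection could hold were checked by their markers. Of 16 T and NK cell markers 0 were abundant enough to test, with Cd3e at 0.362 to 0.657 CPM in control and 0.438 to 1.44 CPM in GA-Camk2a libraries. These Cd3e values rest on 7 and 11 counts in all. Summed over the 16 markers, levels were 10.5 to 13.2 CPM in control and 16.2 to 27.4 CPM in GA-Camk2a libraries, a difference that was not tested. Of 4 tested markers of border macrophages and monocytes Mrc1 (log2FC 2.05 ± 0.42, adjusted p = 0.00501) and Pf4 (log2FC 2.36 ± 0.71, adjusted p = 0.0449) rose. Without GA-Camk2a 16 Mrc1 was too low to be tested, and Pf4 did not pass (log2FC 2.36, adjusted p = 0.0699). Pf4 was at 4.27, 4.34, 2.95 and 2.15 CPM in control and 3.37, 8.17 and 94.6 CPM in transgenic libraries, highest in GA-Camk2a 41, the library with neutrophil and bone genes. Its call was also lost without control 20, control 31 or control 37, with DESeq2, with limma-voom and without the batch term. The part of these cells in the myeloid rises was not tested. The mean of the 4 markers minus the control mean, on the log2(CPM + 1) scale, was 0.31 to 2.04 in GA-Camk2a and -0.31 to 0.26 in control libraries. Leaving out GA-Camk2a 41 does not take these markers out of the other libraries, and 3 of the 4 then rose. The counts without it were 11 for complement, 11 for Fc and Toll-like receptors and 11 for cathepsins. Markers of blood, meninges, ependyma, thalamus, striatum, cortex and oligodendrocyte precursors gave 0 calls. The fold changes of all 4 tested blood, 7 meningeal and 7 ependymal markers were nevertheless positive, with medians of 1.12, 0.70 and 0.49 on the log2 scale. With a choroid plexus covariate 2 blood and 2 meningeal markers rose and 1 thalamic marker rose and 1 fell. Scaling by total counts alone, or leaving out control 11, control 20, GA-Camk2a 30 or GA-Camk2a 41, gave 1 meningeal rise. Leaving out GA-Camk2a 34 gave 1 ependymal rise and 1 cortical fall, leaving out GA-Camk2a 30 gave 1 thalamic fall and leaving out GA-Camk2a 35 gave 1 thalamic rise. Of 9 oligodendrocyte markers Cldn11 rose (11.1%, beside 10.9% of all genes, log2FC 0.46 ± 0.14, adjusted p = 0.0437), a call lost without control 11, control 20, control 31, GA-Camk2a 16, GA-Camk2a 34, GA-Camk2a 35 or GA-Camk2a 41, without the batch term and with an Xist covariate. In vessels 2 of 17 markers rose (11.8%, beside 10.9% of all genes, and 1 without control 20, control 31, control 37 or any GA-Camk2a library but 30 and 34). The fold changes of 16 of the 17 were positive, with a median of 0.45 on the log2 scale. Acta2 of smooth muscle was at 13.1, 16.1, 18.3 and 15.3 CPM against 19, 27 and 38.9 CPM (log2FC 0.80 ± 0.15, adjusted p = 0.00332).

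Markers of excitatory neurons fell, whereas 0 of those of inhibitory neurons did. Of 7 excitatory markers 6 fell, with a median of -0.88, and of 13 inhibitory markers 0 fell and 3 rose, with a median of 0.28 (1 rise without control 20 or control 31, and 1 fall and 2 rises without GA-Camk2a 41). Gad2, which makes GABA, was at 88.1, 88.6, 80.8 and 79.2 CPM in control and 90.8, 114 and 137 CPM in GA-Camk2a libraries, apart by a narrow margin (log2FC 0.40 ± 0.10, adjusted p = 0.015). It lost its call without control 20 (adjusted p = 0.0666) or control 31 (adjusted p = 0.0834) and with no filter on low counts. Sst, Pvalb, Npy and Gad1 did not pass. Whether the lists differed was not tested.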

How the data were processed

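Total RNA of dissected tissue was extracted with Trizol and made into prime-seq libraries. The authors deposited 1 table of raw counts per gene and library, and all its count columns matched a labelled sample, so 0 were left unused. The submitters' processing notes name FastQC 0.11.8, cutadapt 1.12, STAR, DESeq2 1.44 and build mm39, and the study's reporting summary names zUMIs. Whether the counts are reads or unique molecules, and whether strand was used, is not given in the sources used here, so overlapping and near-identical genes are uncertain. Counting error and animal-to-animal spread are both in the tests, and depth per library is given above.

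Gene symbols from a GENCODE table of GRCm38 covered 43308 of 64361 rows and 96.1% of the counts. Hippocampus counts were tested with edgeR 4.0.16 (R 4.3.3, TMM scaling, filterByExpr with a minimum count of 10, quasi-likelihood test, batch as covariate), with Benjamini-Hochberg adjustment over all 14884 genes and a threshold of 0.05, and the script was tested on simulated data. CPM are counts per 1000000 of the TMM-scaled total over the tested genes. The tissue-by-genotype term was fitted over all 21 libraries. Of 11 mice 10 gave both tissues and control 38 gave cortex only, so a fit with the mouse as replicate block pairs the tissues of those 10, although the correlation of deviations within a mouse ran only from -0.229 to 0.284. The 21 pairs of libraries within a genotype differed by more than sampling noise (chi-square per degree of freedom from 4.30 to 15.1).

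Named genes were the 10 largest rises and falls among called genes of mean log2 CPM 3 or higher whose genotypes shared no range, up to 4 called members of each gene list by size of change, Ttr, the GFP row, Xist and the 5 genes with the lowest p of the tissue term. Some genes are not reported here. The members and lists were chosen with earlier results of these data known, and Il34, Cx3cl1, Coro1a, Arpc3, Gria1, Gria2, Grin1, Grin2b, Prox1, P2ry12, Tmem119, Fos, S100a8, Ddx3y and the list members given only by a fold change or a call were chosen after their values were seen. Alternatives were DESeq2 1.42.0, limma 3.58.1 (voom), other scalings and filters, no batch term, a choroid plexus or Xist covariate (the latter chosen after seeing the data), thinned counts, each batch alone and each library left out.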

Additional observations from a re-analysis of the deposited data

Results flagged for a closer look

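Single libraries lay far from the rest of their group for 31 of 330 gene and group combinations by Dixon's test, which chance alone flags in about 1 of 20 groups. GA-Camk2a 16 was the highest transgenic library for Ifit1 (55.3 CPM), Oasl2 (35.6 CPM), Ccl5 (54.2 CPM), Ccl12 (83.6 CPM), Psmb8 (52.0 CPM) and Serping1 (68.5 CPM) and the lowest for Chgb (51.3 CPM) and Arpc3 (87.6 CPM). GA-Camk2a 30 was the lowest for Clec7a (8.28 CPM), Gfap (1374 CPM), C1qa (121 CPM) and Trem2 (69.0 CPM). GA-Camk2a 34 was the highest for Scn2b (124 CPM), Nr4a2 (35.5 CPM), Bcl11a (75.3 CPM) and Hsph1 (175.6 CPM). GA-Camk2a 41 was the highest for Hba-a1 (2730.3 CPM), Col1a1 (309 CPM), Pf4 (94.6 CPM), S100a8 (264 CPM) and Cybb (17.6 CPM), and GA-Camk2a 23 for S100a6 (277 CPM).

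Among controls, library 11 stood apart for Rorb (1472 CPM), Homer2 (49.3 CPM), Trem2 (31.5 CPM), Ftl1 (220.5 CPM) and S100a6 (36.5 CPM), library 20 for Shank3 (35.6 CPM) and Cycs (415 CPM), and library 31 for C3ar1 (4.72 CPM) and Xist (98.4 CPM).

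The genotype effect differed between hippocampus and cortex for 22 of the genes named above. The log2 difference, hippocampus minus cortex, was -2.59 for Lct, -1.89 for Npy2r, -1.83 for Spink8, -1.41 for Gm44257, -1.23 for Neurod6, -1.19 for Cacng8, -1.13 for Homer3, -1.01 for Scn3b, -0.97 for Gabra5, -0.96 for Hpca and for Wfs1, -0.91 for Bok and for Cnih2, -0.87 for Cpne6, -0.78 for Chgb, -0.73 for Cck, -0.70 for Arpc5, -0.60 for Slc17a7 and -0.58 for Kcnab2. It was positive for Pde10a, at 1.36, for Ppp1r1b, at 1.56, and for Rgs9, at 1.71.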

How the results depend on the processing

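Every gene called in both an alternative and the main analysis kept its direction. With DESeq2, voom, other scalings and filters, covariates or no batch term the calls numbered 1298 (Xist covariate) to 1911 (choroid plexus covariate). Thinning all libraries to the smallest left 790 calls (323 higher, 467 lower), batch 1 alone 115 (48 and 67) and batch 2 alone 681 (332 and 349). Leaving out 1 library gave 1038 (control 31) to 1831 (GA-Camk2a 34), with 1082 without control 20; higher calls ran from 449 (control 20) to 811, with 459 without control 31, and lower calls from 579 (control 31) to 1020. Of the 150 called genes named, 96 lost the call in batch 1 alone and 25 in batch 2 alone. The cause of these shifts was not tested, beside the smaller number of libraries or counts.

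The tissue-by-genotype term gave 67 genes with the mouse as replicate block (42 shared with the 59), 128 in limma-voom with the mouse as a random block and 36 without the batch term. Leaving out 1 library gave 22 (hippocampus control 31) to 66 (cortex GA-Camk2a 30), with 39, 29 and 23 without cortex controls 11, 31 and 37, 29 and 39 without cortex GA-Camk2a 23 and 35, 32 and 29 without hippocampus controls 11 and 37 and 36 without hippocampus GA-Camk2a 23. The mitochondrial share differed by -0.80 percentage points in batch 1 (p = 0.6) and -1.38 in batch 2 (p = 0.2, exact permutation tests in both), and by -1.35 to -0.838 with 1 library left out. It was no longer under a p of 0.05 without control 20 (-0.949), control 31 (-0.979) or GA-Camk2a 16 (-0.838), 23 (-1.11), 30 (-1.03) or 41 (-1.04). The difference in total counts ran from -2271544 (without control 31, exact permutation p = 0.0476) to -893843, and that in genes detected from -4537 to -1769.7, with 1 library left out in both.

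Genes that did not pass changed sign in some settings. These were Ttr (-0.078 with the choroid plexus covariate, -0.29 with the Xist covariate and -0.29 without GA-Camk2a 35), Pde10a (0.062 with thinned counts and 0.0023 in batch 1), Xist (-0.13 in batch 2), Prox1 (-0.21 in batch 1) and Fos (-0.035 with no filter, -0.055 in batch 1, and -0.092, -0.072 and -0.043 without control 20, GA-Camk2a 34 and GA-Camk2a 35). With no filter on low counts Ttr, Xist, Rorb, Hba-a1, Col1a1 and S100a8, which did not pass with the filter, were called (adjusted p from 5.56e-39 to 6.4e-06). Hba-a1 was also called with the choroid plexus covariate, and S100a8 with the Xist covariate and without GA-Camk2a 35.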
